A study of Mus musculus with 6 samples.

Results

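The genes described here break down stored fat or bring fatty acids into cells. They are 10 genes chosen by symbol, of 43346 in the table: the lipolysis genes Lipe, Pnpla2, Mgll, G0s2 and Adrb3, and the fatty acid uptake genes Lpl, Cd36, Fabp4, Fabp5 and Acsl1. RNA-seq counts came from femurs of C57BL/6 mice, an inbred strain, aged 4 months. A single image-guided dose of 24 Gy (gray, the unit of absorbed dose) was given at 6.6 Gy per minute to 5 mm of the distal metaphysis, the marrow-rich end of the shaft, of the right femur. The left femur was not radiated, so the controls are femurs of animals that had also been radiated, in the other leg. Bone freed of muscle was taken from both legs on day 21, since the submitters had observed bone loss by day 28 and wanted an earlier time, and gave 3 radiated and 3 non-radiated libraries.

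Fat cells store triglyceride in droplets and release it stepwise as fatty acids. The lipase of Pnpla2 removes the first fatty acid, the lipase of Lipe acts next on diacylglycerol, and the lipase of Mgll releases the last fatty acid and glycerol. Adrenergic signals through the receptor of Adrb3 raise cyclic AMP and switch the process on, and the protein of G0s2 inhibits the lipase of Pnpla2. In the other direction, the secreted lipase of Lpl frees fatty acids from circulating lipoproteins, Cd36 carries them across the membrane, Fabp4 and Fabp5 bind them in the cytoplasm, and Acsl1 activates them with coenzyme A. Several of these genes are also used outside fat: Cd36 and Fabp4 in endothelium and macrophages, Lpl in macrophages and muscle, and G0s2 in blood cells. Marrow contains fat cells, which are known to become more numerous after radiation.

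Upstream sequence was available for 6 of the 10 genes, from RefSeq (build GRCm38.p6). Adrb3, Lpl, Fabp4 and Fabp5 had no entry. The sequences below are the 250 bases before the annotated starts of Lipe, which has 2 starts in that table and was higher in radiated femur, and of Pnpla2 and Cd36, which were not called, so that the upstream regions of the lipase that rose and of genes that were not called can be set side by side. Capitals mark GGGCGG, the GC box, and AGGTCA, the core sequence bound by nuclear receptors such as PPAR gamma, each on either strand.
Lipe, distal start, chr7:25395988-25396237, minus strand: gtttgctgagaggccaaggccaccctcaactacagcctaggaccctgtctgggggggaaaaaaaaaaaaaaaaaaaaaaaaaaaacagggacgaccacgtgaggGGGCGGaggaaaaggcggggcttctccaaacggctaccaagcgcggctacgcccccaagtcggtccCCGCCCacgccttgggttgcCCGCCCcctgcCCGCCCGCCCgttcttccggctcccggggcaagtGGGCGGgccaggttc
Lipe, proximal start, chr7:25390113-25390362, minus strand: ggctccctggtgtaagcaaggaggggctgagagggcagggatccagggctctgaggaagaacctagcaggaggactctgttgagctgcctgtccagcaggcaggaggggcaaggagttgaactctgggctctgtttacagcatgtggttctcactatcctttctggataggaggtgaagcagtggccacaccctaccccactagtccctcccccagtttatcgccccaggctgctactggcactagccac
Pnpla2, chr7:141454938-141455187, plus strand: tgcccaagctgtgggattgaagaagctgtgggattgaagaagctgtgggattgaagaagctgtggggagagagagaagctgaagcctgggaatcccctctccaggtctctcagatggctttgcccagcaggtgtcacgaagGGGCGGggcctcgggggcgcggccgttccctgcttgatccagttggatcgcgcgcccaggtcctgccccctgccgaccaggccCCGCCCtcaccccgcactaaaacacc
Cd36, chr5:17835897-17836146, minus strand: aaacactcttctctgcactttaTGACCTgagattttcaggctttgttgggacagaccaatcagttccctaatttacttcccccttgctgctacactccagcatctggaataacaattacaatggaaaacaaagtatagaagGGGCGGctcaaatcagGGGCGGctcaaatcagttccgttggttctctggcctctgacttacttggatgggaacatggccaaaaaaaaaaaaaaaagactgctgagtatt
The upstream region of the distal Lipe start held 6 GC boxes, at 146, 80, 60, 49, 45 and 15 bases before the start, of which those at 49 and 45 overlap. The proximal Lipe start had none, and Pnpla2 and Cd36 had 2 each. Of the regions not printed, all of genes not called, the 2 of Acsl1 held 4 and 0, the 2 of Mgll 0 and 1, and that of G0s2 held 1. Of 32851 such regions in the table, 32.7% held a GC box. The core sequence AGGTCA was found upstream of Cd36 alone, at 228 bases, among 9 regions of 6 genes, and in 14.0% of all regions. The direct repeat 1 (AGGTCA, any base, AGGTCA) was in none of the 9 regions and in 0.0335% of all. These are matches of letters in a short region and say nothing about binding.

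Total gene counts were 34034251 to 40993415 in non-radiated and 35919292 to 48708383 in radiated libraries. In non-radiated library 2 a single row, AY036118, took 32.9% of the counts, against 0.321% to 5.61% elsewhere. Levels are given as CPM, read counts brought to a common library size, with sizes scaled by the trimmed mean of M-values (TMM), which sets fold changes relative to the bulk of genes. A gene is called when its Benjamini-Hochberg adjusted p in edgeR's quasi-likelihood test, over all 18757 genes tested, is under 0.05. The labels do not say that the libraries came from separate mice, so p-values measure the spread between these libraries, which may be technical. Summed markers of bone (10 genes, 4120 to 7990 CPM), erythroid cells (9 genes, 20400 to 25800) and neutrophils (13 genes, 13000 to 20700) were present in all 6 libraries, so the RNA is that of bone together with marrow.

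Of the 10 genes, Adrb3, Lpl, Lipe, Fabp5 and Fabp4 rose in radiated femur, from 1.46-fold to 5.44-fold, and no gene fell, also at an unadjusted p under 0.05 or with DESeq2 or limma-voom. Pnpla2, G0s2, Cd36, Mgll and Acsl1 were not called. Adrb3 passed the filter through the radiated libraries alone, where it is high, so it is left out of the counts set beside all genes. Of the other 9 genes 4 were called, beside 7.80% of all genes tested called in either direction, with 4.56% called higher and 3.24% lower. In the same 4 of 9 the groups did not overlap, beside 25.8% of all genes tested. Without Adrb3, 1 of 4 lipolysis genes and 3 of 5 uptake genes were called. The median log2 fold change was 0.25 over the 9 genes and 0.40 with Adrb3. Over all genes tested it was 0.002. In bulk RNA, more cells of a type and more RNA per cell cannot be told apart.

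**Figure D1:**
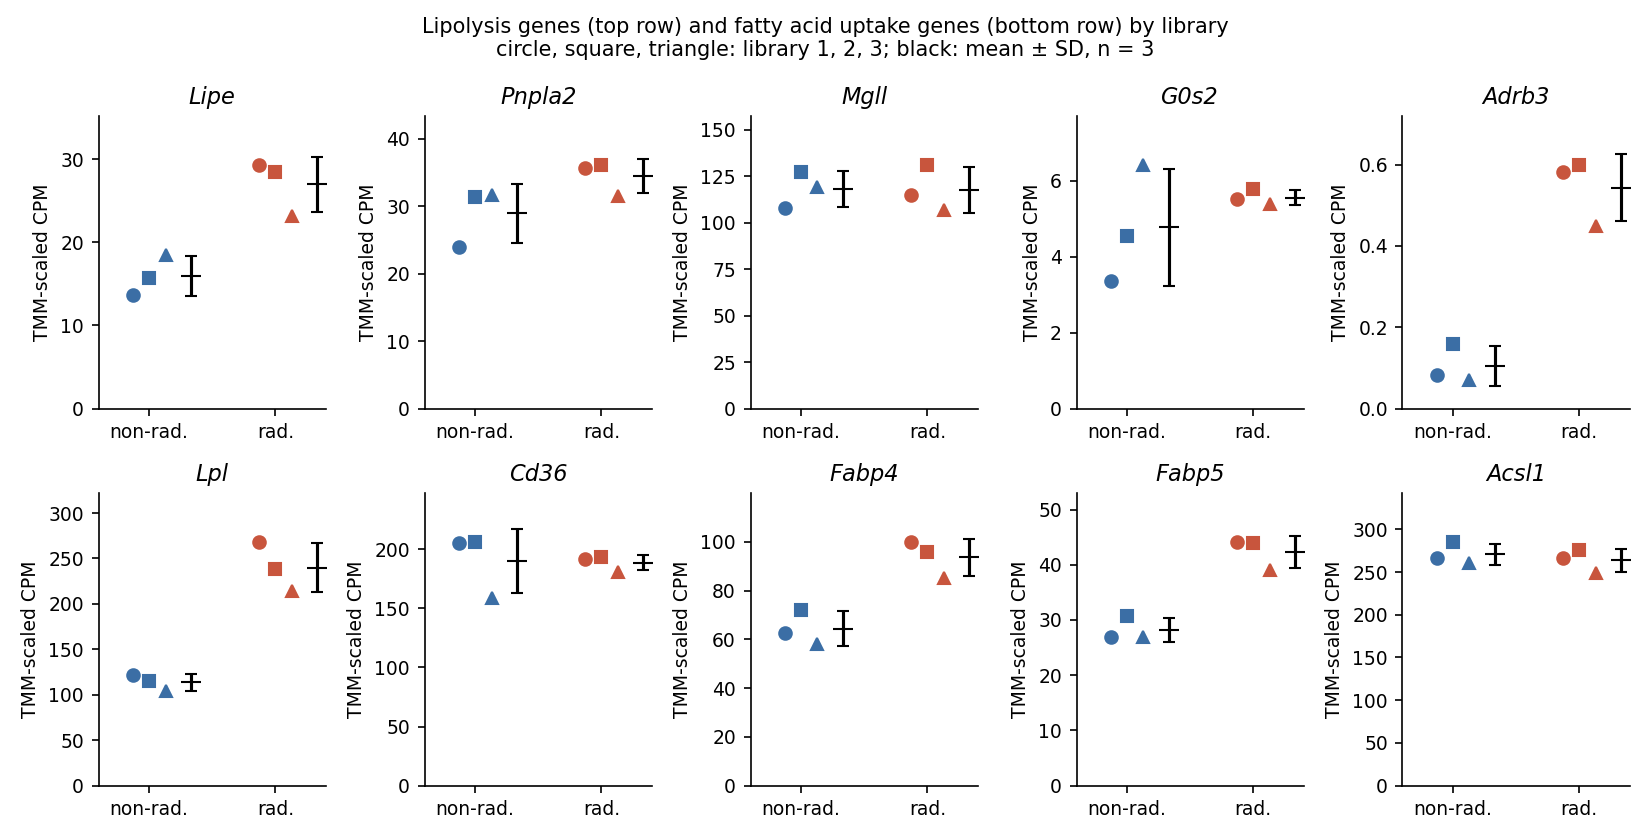
TMM-scaled CPM of the 10 genes (linear axes from 0) in 3 non-radiated (blue) and 3 radiated (red) libraries, with circle, square and triangle for libraries 1, 2 and 3 and the mean ± SD in black. The radiated libraries lie above all non-radiated libraries for Lipe, Adrb3, Lpl, Fabp4 and Fabp5, and overlap them for the other 5 genes.

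Lipe (ENSMUSG00000003123, chromosome 7, 25379527 to 25398710), the hormone-sensitive lipase, was at 13.7, 15.7 and 18.5 CPM in non-radiated libraries 1, 2 and 3 and at 29.3, 28.5 and 23.2 CPM in radiated libraries 1, 2 and 3. Every radiated library was above the highest non-radiated one. The means were 15.9 ± 2.41 and 27.0 ± 3.33 CPM (SD, n = 3 each), a 1.69-fold rise (0.76 ± 0.13 SE in log2, edgeR adjusted p 0.00696). By number the difference was uneven, at 1.10, 0.86 and 0.33 on the log2 scale for libraries 1, 2 and 3. Lipe overlaps 4732471J01Rik on the opposite strand by 769 bases, but that gene had only 4 to 13 counts against 393 to 1523 for Lipe.

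Pnpla2 (ENSMUSG00000025509, chromosome 7, 141455198 to 141460743), which encodes the lipase that starts lipolysis, was at 23.9, 31.3 and 31.6 CPM in the non-radiated and 35.7, 36.1 and 31.5 CPM in the radiated libraries. Radiated library 3 lay inside the non-radiated range, just under non-radiated library 3. The fold was 1.19 with a 95% interval of 0.999 to 1.42 (edgeR adjusted p 0.235). The 95% interval of Lipe, 1.39 to 2.06, overlaps it, and the difference between Lipe and Pnpla2 was not tested. Mgll (ENSMUSG00000033174, chromosome 6, 88724412 to 88828360), the monoacylglycerol lipase, was at 108, 127 and 119 CPM in the non-radiated and 115, 131 and 107 CPM in the radiated libraries. Its groups covered almost the same range, with a fold of 0.993 (95% interval 0.869 to 1.14, edgeR adjusted p 0.967). It shares 90 bases with Gm26588 on the opposite strand, which had 26 to 72 counts, against at least 3193 for Mgll.

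G0s2 (ENSMUSG00000009633, chromosome 1, 193272161 to 193273217), the inhibitor of the lipase of Pnpla2, varied widely among the non-radiated libraries, at 3.37, 4.55 and 6.42 CPM. The radiated libraries were close together at 5.52, 5.79 and 5.38 CPM, inside that range. Its fold of 1.16 has a wide 95% interval, 0.838 to 1.60 (edgeR adjusted p 0.624), and rests on 114 to 309 counts per library. The whole of G0s2 lies within Lamb3 on the opposite strand, which had 119 to 374 counts, and the use of strand in counting is not given in the sources used here, so the G0s2 counts are uncertain.

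Adrb3 (ENSMUSG00000031489, chromosome 8, 27225776 to 27229588), the adrenergic receptor of fat cells, had 3, 4 and 3 counts in the non-radiated and 22, 32 and 20 counts in the radiated libraries. These are 0.0823, 0.160 and 0.0708 CPM against 0.581, 0.599 and 0.448 CPM, with no overlap. The fitted fold was 5.44 (2.44 ± 0.41 SE in log2, edgeR adjusted p 0.00735). Summed over libraries, 74 counts against 10 gave a ratio of 5.66, with an exact 95% interval of 2.91 to 12.3 that covers counting error only. Even in radiated femur the level per length was low, above that of 5.30% of the genes tested.

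Lpl (ENSMUSG00000015568, chromosome 8, 68880491 to 68907448), lipoprotein lipase, was the abundant gene with the largest rise of the 10. It was at 122, 115 and 104 CPM in the non-radiated and 268, 238 and 214 CPM in the radiated libraries. The lowest radiated library was well above the highest non-radiated one. The means were 114 ± 8.86 and 240 ± 27.2 CPM (SD, n = 3 each), a 2.11-fold rise (1.08 ± 0.09 SE in log2, edgeR adjusted p 0.000147). The differences by number were close, at 1.14, 1.05 and 1.03 on the log2 scale. Lpl transcripts contain repeat-like stretches of up to 836 bases that resemble 658 other genes at 80% identity or more, and how reads from those stretches were counted is not given in the sources used here.

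Cd36 (ENSMUSG00000002944, chromosome 5, 17781690 to 17888959), the fatty acid transporter, was at 205, 206 and 159 CPM in the non-radiated and 192, 193 and 181 CPM in the radiated libraries. All radiated libraries lay inside the non-radiated range. The fold was 0.994 with a 95% interval of 0.858 to 1.15 (edgeR adjusted p 0.972). Acsl1 (ENSMUSG00000018796, chromosome 8, 46471041 to 46536051), an acyl-CoA synthetase, was at 266, 285 and 261 CPM in the non-radiated and 266, 276 and 249 CPM in the radiated libraries. Its fold was 0.973 with a 95% interval of 0.883 to 1.07 (edgeR adjusted p 0.780), the narrowest interval of the 10.

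Fabp4 (ENSMUSG00000062515, chromosome 3, 10204088 to 10208576), the fatty acid binding protein of fat cells and macrophages, was at 62.8, 72.2 and 58.0 CPM in the non-radiated and 99.9, 95.8 and 85.3 CPM in the radiated libraries. The groups did not overlap, and the fold was 1.46 (0.54 ± 0.09 SE in log2, edgeR adjusted p 0.00622). Fabp5 (ENSMUSG00000027533, chromosome 3, 10012548 to 10016607), its close relative, was at 26.9, 30.7 and 26.9 CPM in the non-radiated and 44.1, 43.9 and 39.0 CPM in the radiated libraries. It also showed no overlap, with a fold of 1.5 (0.59 ± 0.08 SE in log2, edgeR adjusted p 0.00253). The 95% intervals of the folds, 1.27 to 1.67 for Fabp4 and 1.33 to 1.71 for Fabp5, cover much the same range. Fabp5 resembles 5 pseudogenes at 94.9% to 99.4% identity, of which Gm6166 had 45 to 141 counts and the others at most 8, so a small part of its reads could have been counted there.

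**Figure D2:**
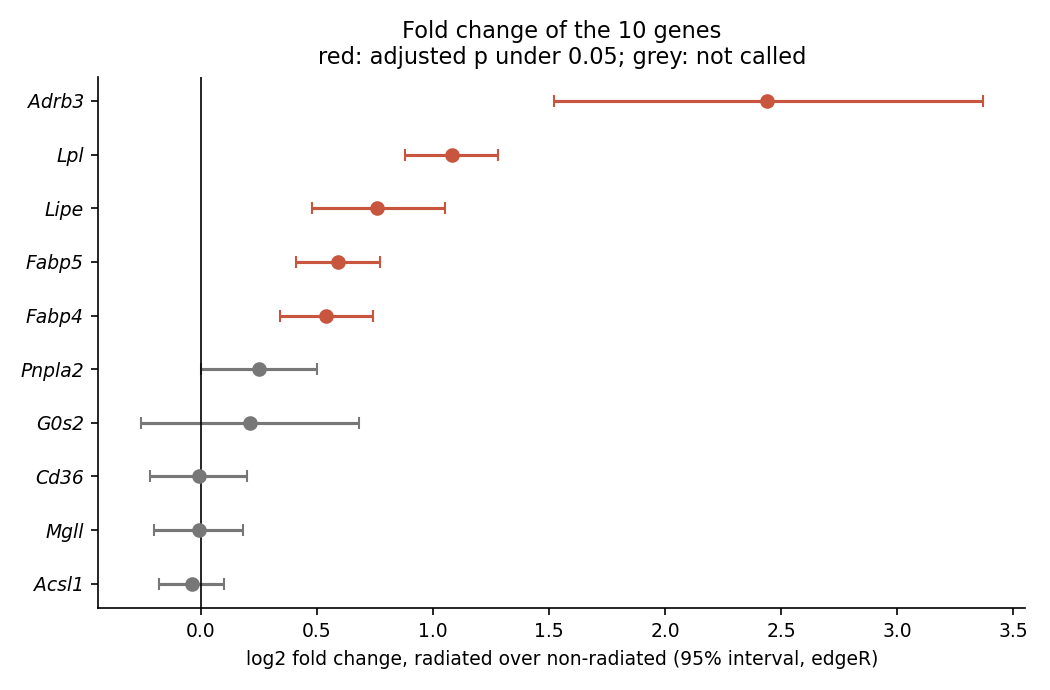
Log2 fold change of each gene, radiated over non-radiated, with its 95% interval from edgeR (n = 3 libraries per group), in red where the adjusted p was under 0.05. Adrb3 stands at 2.44 with the widest interval, Lpl at 1.08, Lipe at 0.76, Fabp5 at 0.59 and Fabp4 at 0.54, and the intervals of the other 5 genes include 0.

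Per length of gene, the order of levels in non-radiated femur was Cd36, Acsl1, Mgll, Lpl, Fabp4, Pnpla2, Fabp5, G0s2, Lipe and Adrb3, from 48.4 ± 6.78 to 0.0360 ± 0.0167 RPKM (CPM per kilobase of gene length; SD, n = 3). The order rests on the deposited lengths. That of Fabp4, 4489 bases, is its whole span from start to end, and that of Fabp5, 3567 bases, is most of its span. If their transcripts are shorter, their levels per length are too low here, so their ranks are uncertain. Acsl1 at 28.6 ± 1.32 and Mgll at 24.3 ± 1.97 RPKM were neighbours, as were Lpl at 16.7 ± 1.30 and Fabp4 at 14.3 ± 1.61 RPKM. In radiated femur Lpl, at 35.3 ± 3.99 RPKM, ranked above Acsl1 at 27.9 ± 1.46 and Mgll at 24.2 ± 2.55 RPKM. Its level rose from above 80.6% to above 92.4% of the genes tested. For Lipe the level was 3.53 ± 0.533 RPKM in non-radiated and 5.98 ± 0.737 RPKM in radiated femur, close to that of G0s2 at 6.39 ± 0.238 RPKM. By these lengths, the 3 genes with the highest levels in non-radiated femur, Cd36, Acsl1 and Mgll, were those with folds nearest to 1.

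Adipoq, the adiponectin gene of fat cells, rose 2.03-fold in the same libraries, from 16.5 ± 1.52 to 33.5 ± 5.96 CPM (SD, n = 3 each; edgeR adjusted p 0.00191). Each gene was therefore also expressed relative to Adipoq within its own library, a measure that does not depend on scaling. It does depend on the reference. The log2 fold change of Adipoq, 1.02, was below the median of 2.13 over the 13 fat cell markers described below. Ratios to other fat cell markers were not computed. The Lpl groups overlapped: the log2 ratio was 2.67 to 2.93 in the non-radiated and 2.78 to 2.98 in the radiated libraries, a difference of 0.07 (exact two-sided permutation p = 0.5). Lipe overlapped too, with a difference of -0.24 (exact permutation p = 0.3). Cd36, Mgll and Acsl1 were lower relative to Adipoq in every radiated library, with differences of -1.01, -1.02 and -1.05 (exact permutation p = 0.1 for each). Fabp4, Fabp5 and Pnpla2 were lower as well, with differences of -0.47, -0.42 and -0.75 (exact permutation p = 0.1 for each), and Adrb3 was higher by 1.28 (exact permutation p = 0.1). The G0s2 ratio differed by -0.74 with overlapping groups (exact permutation p = 0.2). With 3 libraries against 3 the smallest p these 20 labelings can give is 0.1, so none of the 10 ratios could reach 0.05.

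**Figure D3:**
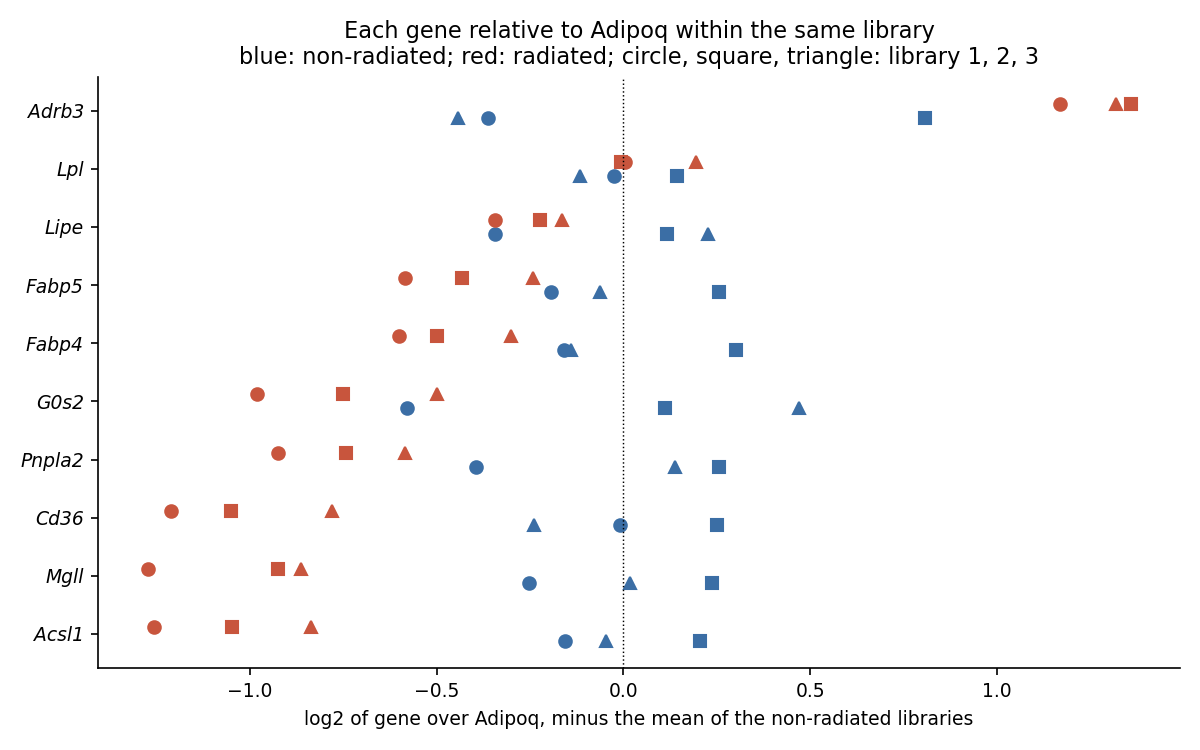
Log2 of each gene's level over that of Adipoq in the same library (x axis, set to 0 at the mean of the 3 non-radiated libraries), in blue for non-radiated and red for radiated libraries. The radiated libraries of Lpl overlap the non-radiated ones, those of Cd36, Mgll and Acsl1 lie about 1 log2 unit to the left, and those of Adrb3 lie to the right.

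Markers of several cell types moved between the groups. Beside the counts of called markers below, 7.80% of all genes tested were called, 4.56% higher and 3.24% lower. With the replicate number as a block the share called was 8.90%, with DESeq2 10.4% and with limma-voom 7.29%. The sum of 13 fat cell markers was 117 to 124 CPM in non-radiated and 206 to 268 CPM in radiated libraries, with 9 markers called higher, none lower (none also at an unadjusted p under 0.05, or with DESeq2 or limma-voom) and none at 0 in every library. The largest parts of the non-radiated sum were Slc2a4 and Cebpa, at means of 37.5 and 32.7 CPM. Neither was called, with folds of 1.09 and 1.16, so the sum understates the folds of most other markers. Slc2a4 was highest in radiated library 2, at 50.2 CPM. The perilipins Plin4 and Plin1 rose 8.94-fold and 12.1-fold, and Cfd, an adipokine, rose 8.16-fold (edgeR adjusted p 1.53e-05, 9.61e-05 and 1.43e-05). The largest folds of the 13, named after their values were seen, were those of the droplet gene Cidec at 15.5 and of Lep, leptin, at 13.7 (edgeR adjusted p 5.73e-05 and 0.000185). Lep, counted among the 9, had 5, 3 and 3 counts in the non-radiated and 56, 94 and 55 in the radiated libraries. Like Adrb3, it passed the filter through the radiated libraries. Lgals12, another of the 9, had only 10, 5 and 13 counts in the non-radiated libraries, and also needed the radiated libraries to pass the filter. The sum of 12 macrophage markers was 929 to 983 CPM in non-radiated and 1130 to 1330 CPM in radiated libraries, with 8 called higher, among them C1qb and Trem2, and Cd163 called lower. Of 13 endothelial markers, Tek and Esam were called lower and none higher (3 at an unadjusted p under 0.05, 1 called with DESeq2 and none with limma-voom), and the sums overlapped, at 539 to 594 and 554 to 606 CPM. All 11 megakaryocyte markers fell, their sum going from 1440 to 1510 CPM to 500 to 586 CPM, and the sum of 13 neutrophil markers was 16600 to 20700 CPM in non-radiated and 13000 to 15300 CPM in radiated libraries. All 13 were lower, 3 of them called by edgeR, 7 with the replicate number as a block, 5 by limma-voom and 11 by DESeq2. Bone markers summed to 5330 to 7990 CPM in non-radiated and 4120 to 5210 CPM in radiated libraries, with 3 of 10 called lower, and 5 with the block. The part of macrophages, endothelium, blood cells and bone cells in the levels of the 10 genes was not tested.

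Skeletal muscle markers, of tissue that was to be removed at dissection, were uneven. Their sum over 20 genes was 604, 915 and 493 CPM in non-radiated libraries 1, 2 and 3 and 2060, 6410 and 644 CPM in radiated libraries 1, 2 and 3, with none at 0 in every library. No marker was called by edgeR, DESeq2 or limma-voom, while all 20 were higher at an unadjusted edgeR p under 0.05. With the replicate number as a block 15 of 20 were called higher, and the sum was higher in the radiated library of every number. All 20 were called under library totals alone and with no filter on low counts, and 17 without radiated library 3. Of all genes tested, 5.33%, 7.20% and 7.11% were called in these 3 fits. Radiated library 3, with a muscle sum inside the non-radiated range, was above every non-radiated library for Lipe, Adrb3, Lpl, Fabp4 and Fabp5. Radiated library 2, with the highest muscle sum, was the highest of the 6 for Adrb3 and not for Lipe, Lpl, Fabp4 or Fabp5. With the log2 muscle sum as a covariate in the edgeR fit the 5 genes were called as before, with log2 fold changes of 2.18 for Adrb3, 0.99 for Lpl, 0.64 for Lipe, 0.48 for Fabp5 and 0.43 for Fabp4 (edgeR adjusted p 0.0447, 0.000547, 0.0448, 0.0142 and 0.0374). Over all genes tested, the covariate left 974 called in place of 1463, so calls were lost across the table.

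**Figure D4:**
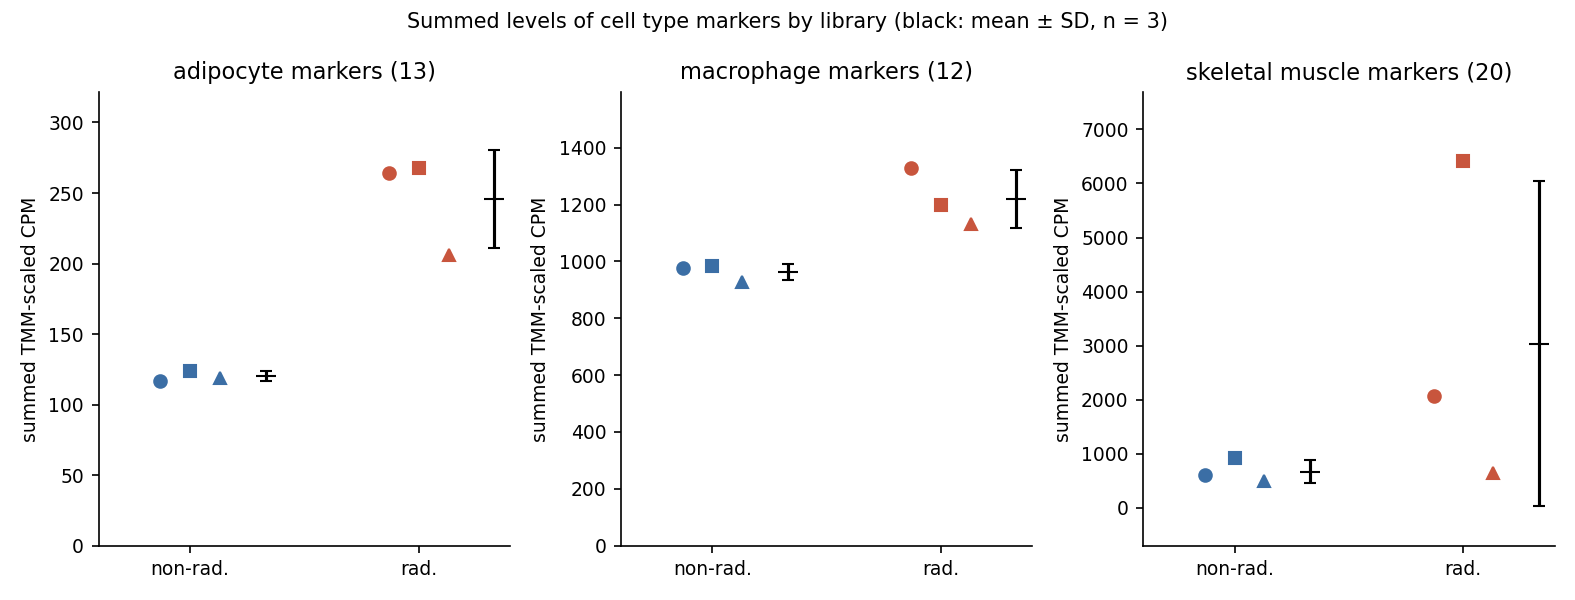
Summed TMM-scaled CPM of 13 fat cell, 12 macrophage and 20 skeletal muscle markers in each library, with the mean ± SD in black (n = 3). Fat cell and macrophage sums separate the groups, while the muscle sum is 644 CPM in radiated library 3, inside the non-radiated range of 493 to 915, and 6410 CPM in radiated library 2. Slc2a4 and Cebpa, not called, are the largest parts of the fat cell sum in non-radiated libraries.

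The control of lipolysis was followed in a list of 30 regulators and neighbouring enzymes, of which 28 were tested. In it 8 genes rose, 4 fell and 16 were not called, and the median lay at -0.01 in log2. That is 42.9% called, beside 7.80% of all genes tested. With the muscle covariate Pde3b, Dagla and Gk were no longer called, which left 9 calls in place of 12. Aqp7, the channel through which fat cells release glycerol, rose 6.25-fold, from 0.669 ± 0.0959 to 4.24 ± 0.363 CPM (SD, n = 3 each; edgeR adjusted p 3.69e-05). Plin1, the droplet protein that gates access of the lipases, went from 0.951 ± 0.151 to 11.6 ± 3.94 CPM. Pnpla3, a relative of Pnpla2, and Hcar1, the lactate receptor that restrains lipolysis, rose 4.64-fold and 4.33-fold (edgeR adjusted p 0.00156 and 0.00205). Both rest on few non-radiated counts, 11, 9 and 13 for Pnpla3 and 21, 8 and 14 for Hcar1. Non-radiated library 2 was under the filter for both, so they needed the radiated libraries, where they are high, to pass it. They are among the 12 calls, so the 42.9% leans on them in part. Abhd5, the activator of the lipase of Pnpla2, was at 73.5 ± 1.79 and 69.0 ± 3.17 CPM (SD, n = 3 each), and was not called (edgeR adjusted p 0.393).

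The 4 regulators that fell were Prkar2b, a regulatory subunit of protein kinase A, Adra2a, an adrenergic receptor that opposes lipolysis, Gk, glycerol kinase, and Adcy6, an adenylyl cyclase. Prkar2b went from 197 ± 13.2 to 132 ± 6.37 CPM (SD, n = 3 each; log2 fold change -0.59, edgeR adjusted p 0.000863). Adra2a, Gk and Adcy6, named after their values were seen, had log2 fold changes of -1.33, -0.44 and -0.32 (edgeR adjusted p 0.00724, 0.00850 and 0.0184). The Adcy6 call was lost without non-radiated library 2 (adjusted p 0.0677) or radiated library 1 (0.0801). Prkar2b is also expressed in the platelet lineage, whose 11 markers fell, and the part of that in its fall was not tested.

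Of 20 genes around lipoprotein lipase 16 were tested, and 5 rose, 1 fell and 10 were not called, with a median of 0.07. That is 37.5% called, beside 7.80% of all genes tested. Lipa, the lysosomal acid lipase, rose from 103 ± 7.01 to 143 ± 4.24 CPM (SD, n = 3 each; 1.39-fold, edgeR adjusted p 0.00191). Lrp1, a lipoprotein receptor, and Apoe, an apolipoprotein of macrophages, rose 1.47-fold and 1.57-fold (edgeR adjusted p 0.00844 and 0.0177). With the muscle covariate neither was called (0.0525 and 0.102), and 2 genes of the list were called in place of 6. The log2 fold changes of Lrp1 and Apoe were then 0.47 and 0.53, against 0.56 and 0.65 without the covariate. Gpihbp1, which anchors lipoprotein lipase on capillary endothelium, rose 1.80-fold (edgeR adjusted p 0.0283), and Angptl4, an inhibitor of that lipase, rose 1.31-fold (0.0194). Neither call was firm. Leaving out library 1 or 2 of either group ended that of Gpihbp1 (edgeR adjusted p 0.0543 to 0.106). For Angptl4 the same held of libraries 1 and 2 of the non-radiated and 2 and 3 of the radiated group (edgeR adjusted p 0.0595 to 0.0731). Without non-radiated library 1 or radiated library 1 the Apoe call was lost too (edgeR adjusted p 0.0502 and 0.0630). The gene that fell was Lipc, hepatic lipase, named after its value was seen, with -0.87 in log2 (edgeR adjusted p 0.0428), and it was called in only 1 of the 6 fits that left out a library.

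Of 24 other uptake and activation genes 17 were tested, of which Cav1 and Slc27a1 rose, Slc27a6 fell and 14 were not called. The calls are 17.6% of the list, beside 7.80% of all genes, and went in both directions, with a median of 0.03. With the muscle covariate only Cav1 was called. Cav1, the caveolar coat protein abundant in fat cells, rose 2.52-fold, from 5.23 ± 1.11 to 13.2 ± 3.31 CPM (SD, n = 3 each; edgeR adjusted p 0.00536). Slc27a1, a fatty acid transport protein, rose 1.62-fold (edgeR adjusted p 0.0108), a call lost without radiated library 1 (0.0527), with the muscle covariate (0.0588) and without both libraries of number 2 (0.0664). Slc27a6 fell by 0.93 on the log2 scale (edgeR adjusted p 0.0459) and was called in 1 of 6 fits that left out a library, the one without radiated library 3. Fabp3, the binding protein of muscle, was at 0.329, 1.04 and 0.731 CPM in the non-radiated and 0.898, 6.55 and 0.627 CPM in the radiated libraries. Its high value was in radiated library 2, which also had the highest muscle sum, and Fabp3 was not called (edgeR adjusted p 0.210).

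A list of 26 genes around the burning of fatty acids in mitochondria and peroxisomes holds enzymes and also regulators such as Pdk4. All 26 were tested, and 2 rose, none fell and 24 were not called, with a median of 0.04. The calls are 7.69% of the list, close to the 7.80% over all genes tested. None fell at an unadjusted p under 0.05 or with DESeq2 or limma-voom either. Pdk4, which limits the use of glucose when fatty acids are burned, rose 2.41-fold, from 8.08 ± 0.898 to 19.5 ± 4.21 CPM (SD, n = 3 each; edgeR adjusted p 0.00160). Cpt1c, a carnitine palmitoyltransferase relative, rose 1.86-fold (edgeR adjusted p 0.00348). Cpt1b, the muscle form of the enzyme that admits fatty acids to mitochondria, was at 5.18, 5.63 and 6.58 CPM in the non-radiated and 7.50, 12.5 and 6.70 CPM in the radiated libraries, and was not called (edgeR adjusted p 0.142). As with Fabp3, its highest value was in radiated library 2.

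**Figure D5:**
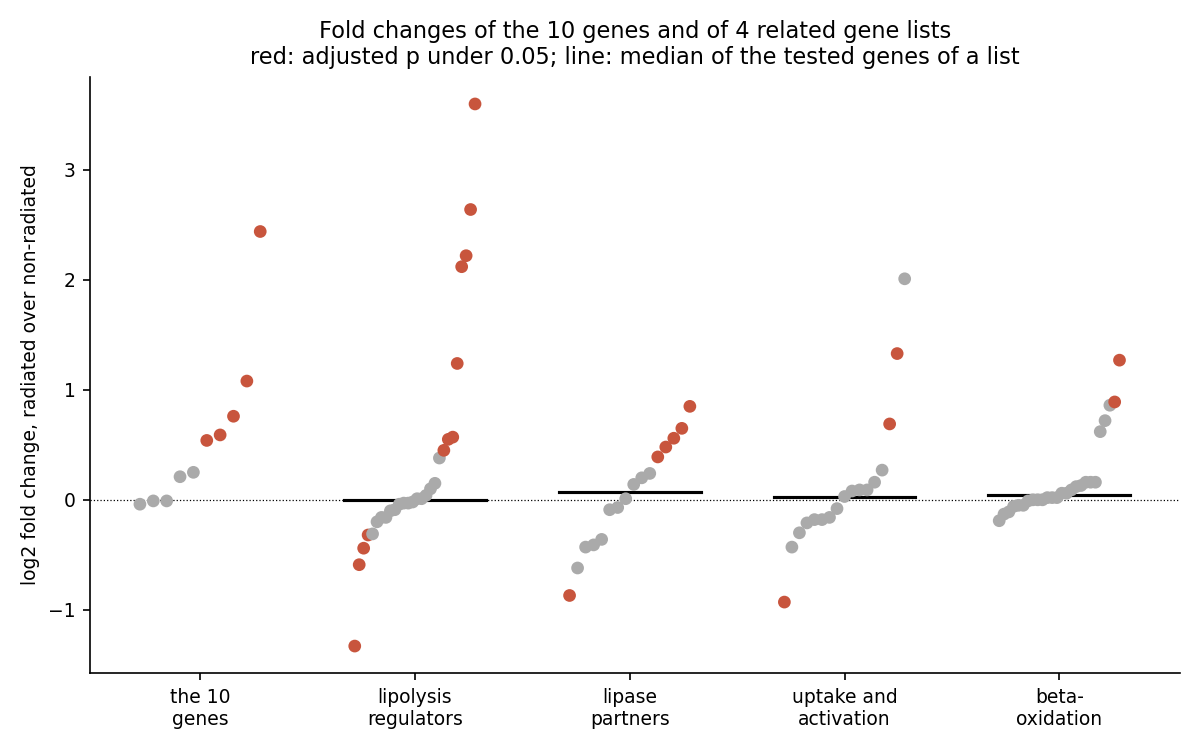
Log2 fold change of the 10 genes and of the tested genes in 4 related lists (28 lipolysis regulators, 16 partners of lipoprotein lipase, 17 uptake and activation genes, 26 beta-oxidation genes), in red where the edgeR adjusted p was under 0.05, with the median of each related list as a line. The medians lie between -0.01 and 0.07, and the largest rises are among the lipolysis regulators, with Plin1 at 3.60.

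Across the 6 libraries, the gene of the other lists (187 genes) whose log2 CPM was most like that of Lpl was Plin1 (Pearson r = 0.996), and for Fabp4 it was Pparg (0.985). Fabp5 and Adrb3 both had Pnpla3 as the nearest (0.991 and 0.974), and Lipe had Lrp1 (0.993). Mgll and Acsl1 shared Acadvl, an enzyme of beta-oxidation (0.961 and 0.899), and Cd36 and G0s2 had Etfa and Eci1, of the same pathway (0.908 and 0.969). Pnpla2 was nearest to Hba-a1, a haemoglobin gene (0.967). Correlation with Adipoq was 0.981 for Lpl, 0.936 for Fabp5, 0.922 for Lipe, 0.911 for Fabp4 and 0.899 for Adrb3, against -0.212 to 0.631 for the 5 genes not called. With the muscle gene Ckm it was 0.659 to 0.763 for the first 5 and 0.299 to 0.709 for the others. These are descriptions over 6 libraries that share the group difference, chosen as the highest of many.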

How the data were processed

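Poly(A) RNA of 6 femur pieces was sequenced from stranded mRNA libraries, per the labels' protocols. The authors deposited, for each gene and library, raw read counts and RPKM, per the file headers. The submitters' processing notes name bcl2fastq, STAR 2.5.2b, Subread, featureCounts and the build mm10; filters and the use of strand are not given in the sources used here. RPKM deposited by the authors was not used. The RPKM values printed were computed from counts and the deposited gene lengths. Coordinates are as deposited.

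The filter was filterByExpr with a minimum count of 10 and a minimum total of 15. It left 18757 of 43346 genes, whose counts were scaled by TMM and tested with edgeR 4.0.16 in R 4.3.3 (glmQLFit, glmQLFTest, group as the only term). All 10 genes passed, Adrb3 through the radiated libraries. Benjamini-Hochberg adjustment ran over all of them. The standard error is the log2 fold change divided by the square root of F, and 95% intervals use the fit's degrees of freedom. The fit was tested on simulated data. Log2 ratios to Adipoq used a prior count of 0.5. Of 212 list entries all but Ahsp were found, 5 through gene IDs. Transcripts similar to a gene were sought by BLAST in GENCODE M21 (minimum identity 80%, minimum length 100 bases).

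The genes and lists were chosen with earlier results of these data known. Named are the 10 genes, up to 5 called genes per pathway list and 3 per marker list by smallest p, and Abhd5, Plin1, Gpihbp1, Angptl4, Fabp3, Slc27a1, Cpt1b and Adipoq.

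Libraries within each group were far from identical (chi-square per degree of freedom 18.1 to 633). Both groups carry the numbers 1 to 3. Deviations from group means correlated at 0.160, 0.261 and 0.181 for the same number and -0.161 to -0.0138 for different numbers, across genes. Deviations within a group sum to nothing, so positive correlations for the same number force negative ones for different numbers. The contrast therefore cannot show that the numbers pair the libraries. The labels state no paired design, so the main test ignores the numbers, and they are a block only in an alternative. With that block 1670 genes were called in place of 1463. Alternatives were the block on that number, DESeq2 1.42.0 size factors, library totals alone, totals without AY036118 and Gm26917, no filter, a filter at mean 1 CPM, limma-voom (limma 3.58.1), the Wald test of DESeq2, the muscle sum as a covariate, leaving out each library, and, chosen after seeing the data, leaving out both libraries of number 2.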

Additional observations from a re-analysis of the deposited data

How the results depend on the processing

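Lipe, Lpl, Fabp4 and Fabp5 were called higher under all 16 alternatives. Adrb3 was called in the 14 that gave it an adjusted p; it fell below the filter at mean 1 CPM and had none from DESeq2's Wald test. Pnpla2, G0s2, Cd36, Mgll and Acsl1 were called in none. With the replicate number as a block 5 of the 10 genes were called, the same 5, and of the pathway lists the call of no gene was lost and that of Pcsk5 was gained (edgeR adjusted p 0.0269). Where a gene was not called, its sign could change. Under library totals alone, which move the median of all genes by 0.19, the log2 fold changes were 0.20 for Mgll, 0.19 for Cd36 and 0.16 for Acsl1, and Prkar2b, Gk and Adcy6 were no longer called (edgeR adjusted p 0.424, 0.698 and 0.807). Under totals without AY036118 and Gm26917 they were 0.0205 for Mgll and 0.0224 for Cd36, under limma-voom 0.00332 for Cd36, and without both libraries of number 2 0.0324 for Cd36. Over the fits without each library in turn they ran from -0.0961 to 0.0547 for Mgll and from -0.13 to 0.0488 for Cd36. The number of called genes, 1463, was 974 with the muscle covariate, 779 without both libraries of number 2, and 764 to 1376 without each library in turn, with 905 and 819 without non-radiated libraries 1 and 2 and 764 without radiated library 1. Library totals alone gave 1000 calls, 85.4% of them higher, against 58.5%. Depth limits Adrb3, at 3 to 4 counts in non-radiated libraries.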
